A study of Mus musculus with 8 samples.

Results

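Arterial smooth muscle cells (SMC) of the mouse liver were taken as the cells of community cluster 2 of the mesenchymal dataset, called m2c. They made up 236 of the 467 vascular mural cells, of the 1337 mesenchymal cells and of the 3491 cells in the whole dataset. The other mural clusters of the same clustering were m5c (87 cells, named second layer cells by the study), m8c (72 cells, portal vein SMC), m9c (39 cells, venous SMC) and m15c (33 cells, elastic SMC of large veins). The authors grouped the cells with the pagoda2 software on the same transcriptomes that are compared here. A cluster against the other clusters is therefore no test, and levels and ratios are given in each pool and plate without p-values.

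The cells came from dissociated livers of adult C57BL6/J mice of both sexes, and each was sequenced on its own with Smart-seq2, a full-length, plate-based method. Mesenchymal cells were sorted on heterozygous fluorescent reporters, Pdgfrb-GFP, Pdgfra-H2bGFP or Acta2-GFP, in which promoter constructs or the locus of the named gene drive the fluorescent protein, or with an antibody against PDGFRα. The animals also included Cspg4-dsRED and Cldn5-GFP reporters and combinations of strains, and no disease model or treatment was applied. Tissue was digested with enzymes in the warm before the sort. The labels give the sex and the plate of a cell but neither its mouse nor its reporter, so *Acta2* and *Pdgfrb* may have helped to choose the cells.

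The series holds 1 pool of mesenchymal cells for each sex. The male pool held 127 cells of m2c, of which 62 were on plate liver_Rb_573s, 47 on liver_048s, 14 on liver_319s, 3 on liver_Acta2_184s and 1 on liver_128s. The female pool held 109, all on plate liver_058s. Sex, mouse and plate thus cannot be told apart for the female cells, while every female ratio between clusters is a comparison within a single plate. Total counts per cell of m2c ranged from 51083 to 578978 in the male pool (median 122646) and from 65430 to 641393 in the female pool (median 267377). A median of 2753 genes was counted per male and 6187 per female cell. Since more genes were counted per female cell, a share of cells refers to cells with at least 20 counts of a gene. That is the detection limit named in the study's methods. Exact binomial intervals on such shares, at 95%, cover counting error alone.

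SMC form the contractile layer of the vessel wall. In arteries and arterioles they set the resistance to flow: calcium enters through voltage-gated and receptor-operated channels and is released from the sarcoplasmic reticulum, myosin light chain kinase then phosphorylates myosin, and potassium channels, cyclic nucleotides and myosin phosphatase oppose contraction. In the liver, the hepatic artery runs beside the portal vein and feeds the peribiliary vascular plexus around the bile ducts, whereas the portal and central veins have thin walls under low pressure.

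Levels are given as CPM, counts scaled to a total of 1000000, of the counts summed over the cells of a cluster and pool. The level of the other mural cells is the mean of m5c, m8c, m9c and m15c with equal weight. Where a pair of levels or ratios is given, the male pool comes first. A gene was called higher in m2c when log2 of the ratio, with 1 CPM added to both sides, was at least 1 in the male and in the female pool, and lower when it was at most -1 in both. Of 15500 genes measured, 1112 were called higher, or 7.17%, and 1634 were called lower, or 10.5%. A stricter rule asks for the same difference against each of the 4 clusters. By it 358 genes were higher, or 2.31%, and 151 were lower, or 0.974%. The median log2 ratio of all genes was -0.13 in the male and -0.01 in the female pool.

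Of the 6 markers that describe arterial SMC, 4 were called higher in m2c (66.7%, against 7.17% of all genes), and *Acta2* and *Cnn1* were not. The study characterized this cluster by *Pln*, *Gpr20*, *Sncg*, *Rasd1* and high *Cnn1*, so their levels here are no test. *Pln* encodes phospholamban, the inhibitor of the calcium pump of the sarcoplasmic reticulum. It was at 1185 CPM in m2c on liver_048s, 576 on liver_Rb_573s, 673 on liver_319s and 566 on the female plate liver_058s. The mean of the other clusters was 54.6 CPM in male and 18.3 in female cells, and m15c was the highest of them, at 217 and 54.4 CPM. All 4 of these plates, each with at least 5 cells of m2c, thus lay above every other cluster. The log2 ratio was 4.03 in the male and 4.88 in the female pool. The male m15c held 3 of its 7 cells on liver_048s: without that plate m15c drops out of the male mean and the mean of both ratios was 6.97 for *Pln*, against 4.45 with it. At least 20 counts of *Pln* were found in 157 of 236 cells of m2c (66.5%, interval 60.1 to 72.5%) and in 3 of 33 cells of m15c. None of the 87, 72 and 39 cells of m5c, m8c and m9c reached 20 counts, which allows shares of up to 3.45%, 4.17% and 7.69% by the limit of 3 cells of the total, and up to 4.15%, 4.99% and 9.03% by the exact interval.

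*Rasd1*, a small GTPase of the Ras family, was at 645, 547 and 611 CPM on the 3 male plates (liver_048s, liver_Rb_573s, liver_319s, in this order from here on) and at 702 CPM on the female plate. The other clusters had 1.36 CPM in male and 12.6 in female cells (log2 ratio 8.0 and 5.69). *Gpr20*, an orphan G protein-coupled receptor, was at 564, 534 and 560 CPM and at 701 CPM in the female pool, against 8.28 and 41.5 CPM. Its highest level elsewhere was in m8c, at 32.5 and 142 CPM. *Sncg*, which encodes γ-synuclein, was at 565, 778 and 785 CPM and at 778 CPM in the female pool, against 14.4 and 23.0 CPM. These genes were not in every cell: 110 of 236 cells held 20 counts of *Rasd1*, 118 of *Gpr20* and 196 of *Sncg* (46.6%, 50% and 83.1%). The share of cells with *Gpr20* was 27.4% on liver_Rb_573s, the plate with the lowest counts per cell (median 84477.5), and 64.2% on the female plate.

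*Acta2* and *Cnn1* (calponin) differed less. At least 20 counts of *Cnn1* were found in 179 of 236 cells of m2c and 30 of 33 of m15c. In m8c, m9c and m5c they were found in 10 of 72, 9 of 39 and 3 of 87 cells. *Acta2* was at 7278, 10932 and 5042 CPM on the male plates and 5895 CPM on the female plate of m2c. In m15c it was at 5661 and 5951 CPM in the male and female pool, so m2c and m15c overlapped, while m5c had 286 and 934 CPM. The log2 ratio over all 4 clusters was 1.41 and 0.78, under the limit in the female pool. *Cnn1* was at 1150 CPM in male and 1168 in female cells of m2c, and at 1539 and 2125 CPM in m15c, which had more of it in both. Without liver_048s, and so without the male m15c, the mean of both ratios of *Cnn1* was 2.19, against 1.09 with it. Against m8c, *Cnn1* was higher in m2c by a log2 ratio above 1 in both pools (105 and 200 CPM in m8c). Within plates, m2c was set against the summed other mural cells of the plate, without equal weight of the clusters. These were 15 cells on liver_048s, 69 on liver_058s and 27 on liver_Rb_573s, of which 3, 26 and 2 were of m15c. The log2 ratios for *Pln* were 3.88 on liver_048s, 4.59 on liver_058s and 8.44 on liver_Rb_573s. For *Acta2* these were 2.14, 0.79 and 2.43. Of all called genes, 853 of the 1112 higher and 1018 of the 1634 lower ones kept their side of 0 on each of these 3 plates. With the limit of 1 within each plate 803 genes were lower. These plates hold most of the m2c cells that made the calls, all female ones among them. Agreement within plates is therefore no independent check here or below.

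**Figure D1:**
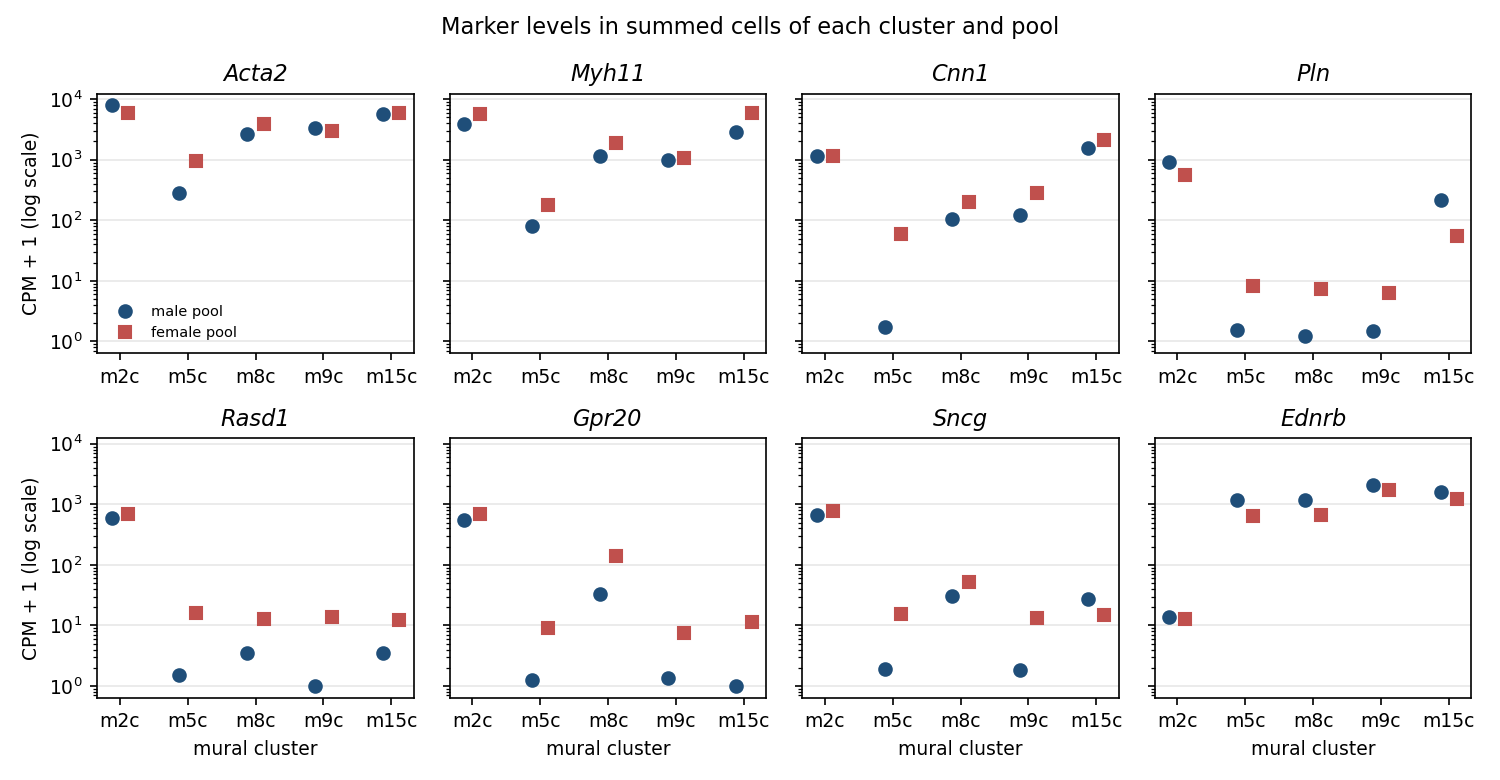
Levels of 8 genes in summed cells of the 5 mural clusters, as CPM + 1 on a log scale, with 1 point per cluster and pool (circles male, squares female). *Pln*, *Rasd1*, *Gpr20* and *Sncg* stand highest in m2c, *Acta2*, *Myh11* and *Cnn1* are shared with m15c, and *Ednrb* is at 12.7 and 12 CPM in m2c against 638 CPM or more in every other cluster.

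The contractile apparatus was the most abundant group. Its 27 genes summed to 47839 CPM in male and 45940 in female cells of m2c. The sums were 38142 and 49442 CPM in m15c, 20013 and 23427 in m8c, 19990 and 22045 in m9c, and 7036 and 9828 in m5c. Of the 27, 9 were called higher (33.3%, against 7.17% of all genes) and none lower, with a median log2 ratio of 1.30 and 0.88. *Myh11*, the myosin heavy chain of smooth muscle, was at 3859, 5158, 2043 and 5684 CPM on the 4 plates (female last), against 1274 and 2279 CPM. *Des*, the intermediate filament protein desmin, was at 2936 and 3078 CPM against 763 and 1119 CPM, and was higher than in each other cluster. The called genes also included *Smtn*, *Lmod1*, *Actn1* and *Synpo2*, which encode proteins of actin filaments and their anchors.

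A pair of called genes encodes proteins best known from striated muscle. *Ldb3*, a protein of the Z-disc, was at 479 and 370 CPM against 5.40 and 27.3 CPM (log2 ratio 6.23 and 3.71). It had 20 counts in 114 of 236 cells of m2c, in none of 87 in m5c, and in 1 of 72, 1 of 39 and 3 of 33 in m8c, m9c and m15c. *Synm*, the intermediate filament protein synemin, was at 82.9 and 128 CPM against 4.41 and 14.2 CPM. The other 18 genes of the group were not called, with log2 ratios between -0.15 and 1.51 in the male and between -0.70 and 1.0 in the female pool. Against m15c alone, *Ldb3*, *Des* and *Synm* were higher in m2c and *Actg2*, the enteric smooth muscle actin, was lower, at 843 and 949 CPM against 1858 and 2565 CPM.

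The CPM of the most abundant of these genes depended on the counts of a cell. On liver_048s, the shallower cells of m2c held a median of 1483 counts of *Acta2* and the deeper cells 1857, although their median totals were 118400 and 328670. Spearman's rho between *Acta2* CPM and total counts across cells was -0.95 on liver_048s (47 cells), -0.44 on liver_Rb_573s (62) and -0.79 on liver_058s (109). For *Myh11* it was -0.07, 0.09 and 0.00. A CPM is divided by the total of the cell, so the axes share a term. In no cell did *Acta2* exceed 2530 counts, or 1.15 per base of its 2196 exonic bases, and *Myl9* reached at most 1.45 per base. Over all cells used, 13076 genes had a highest count above 300, and 2 of them exceeded 2 counts per exonic base. The handling of duplicate reads is not given in the sources used here, and its part in the levels of *Acta2*, *Myl9*, *Tagln* and *Actb* was not tested.

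**Figure D2:**
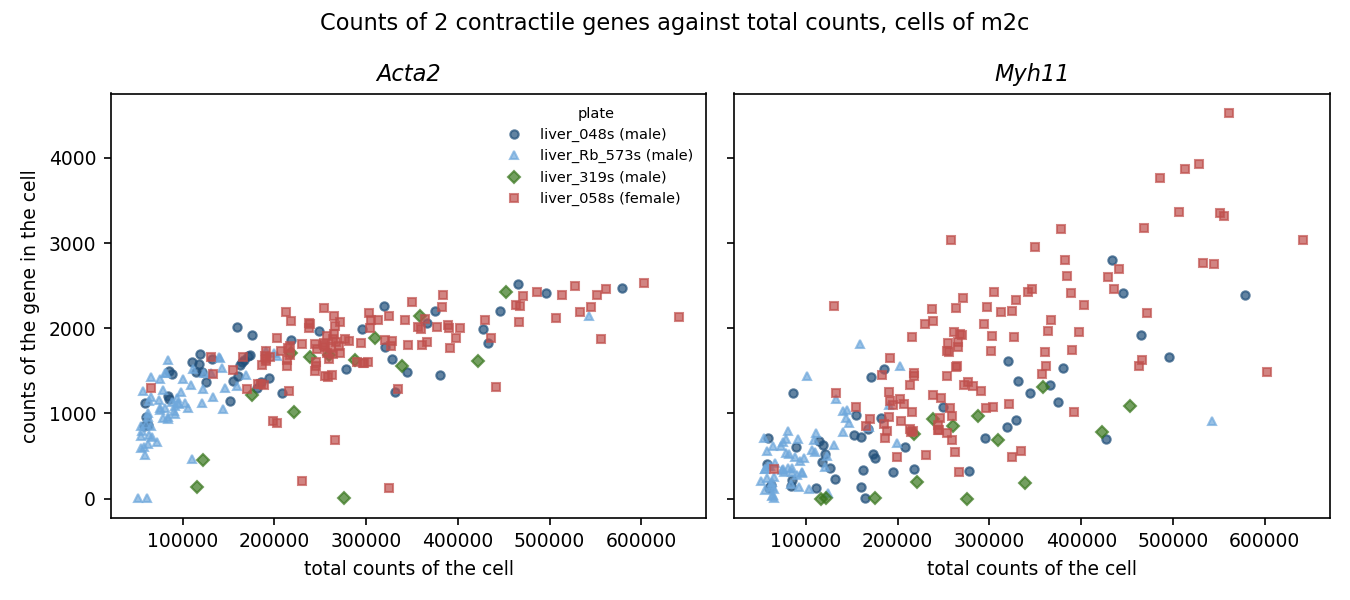
Counts of *Acta2* (left) and *Myh11* (right) in each cell of m2c against the total counts of the cell, coloured by plate, for the 4 plates with at least 5 such cells. *Acta2* levels off, with none of the cells above 2530 counts, whereas *Myh11* reaches 4531 counts in the deepest cells.

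Promoters are shown for 4 genes of the muscle groups, to set a pair with and a pair without the strict consensus of the CArG box, the element bound by serum response factor with its cofactor myocardin, side by side. Serum response factor also binds boxes that depart from the strict consensus, *Acta2* being a textbook case, and such boxes were not sought. The sequences are the 250 bases before the RefSeq start of transcription (GRCm38.p6), 5′ to 3′ on the strand of the gene, with the box in capitals. They lie at chr2:156775214-156775463 on the plus strand for *Myl9*, chr14:34588682-34588931 on the minus strand for *Ldb3* (the more upstream of its starts in the table), chr19:34255374-34255623 on the minus strand for *Acta2*, and chr10:53337436-53337685 on the plus strand for *Pln*.
Myl9: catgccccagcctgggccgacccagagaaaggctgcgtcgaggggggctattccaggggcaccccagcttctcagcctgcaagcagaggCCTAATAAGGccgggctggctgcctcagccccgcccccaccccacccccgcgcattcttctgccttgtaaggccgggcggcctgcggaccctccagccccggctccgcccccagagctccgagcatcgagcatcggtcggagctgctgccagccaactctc
Ldb3: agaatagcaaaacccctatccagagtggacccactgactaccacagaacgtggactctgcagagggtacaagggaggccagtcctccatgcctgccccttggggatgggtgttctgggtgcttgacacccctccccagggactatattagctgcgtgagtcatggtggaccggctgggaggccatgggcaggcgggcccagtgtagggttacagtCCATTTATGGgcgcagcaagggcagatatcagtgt
Acta2: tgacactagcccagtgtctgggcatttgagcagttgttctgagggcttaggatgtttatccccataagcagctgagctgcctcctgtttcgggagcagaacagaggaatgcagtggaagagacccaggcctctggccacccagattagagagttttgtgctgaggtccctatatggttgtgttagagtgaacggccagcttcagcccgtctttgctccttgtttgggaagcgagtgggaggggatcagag
Pln: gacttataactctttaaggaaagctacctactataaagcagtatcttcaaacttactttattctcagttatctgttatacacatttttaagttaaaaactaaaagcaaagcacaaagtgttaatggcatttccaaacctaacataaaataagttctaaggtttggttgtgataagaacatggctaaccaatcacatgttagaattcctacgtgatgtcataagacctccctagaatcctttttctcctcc
The box of *Myl9* began 161 bases and that of *Ldb3* 35 bases before the start. The box was sought by its name, the strict consensus of 10 bases, which reads the same on both strands. It was found before 439 of 27025 genes in the table (1.62%), 149 of 10410 measured genes (1.43%), 19 of 765 genes called higher (2.48%) and 18 of 1133 called lower (1.59%). Among the contractile genes it was found before 4 of the 22 with an entry, *Myl9*, *Myl6*, *Vcl* and *Ldb3*, and among the calcium genes before 1 of 23. *Ldb3* alone of those 4 was called higher. No match says only that the strict letters are not in this window, and does not make *Acta2* or *Pln* a promoter without a box.

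Several genes of calcium handling were higher in m2c, both of the store and of the plasma membrane. Of 27 measured members, 13 were called higher and 2 were lower, against 7.17% and 10.5% of all genes. Those of the store were the pump *Atp2a2* with its inhibitor *Pln*, the pump *Atp2a3*, the release channel *Ryr2*, the calcium-binding proteins *Casq2* and *Srl*, and *Jph2*, which ties the store to the plasma membrane. *Atp2a2* was at 293 CPM in male and 446 in female cells against 144 and 221 CPM, and m15c had 302 and 599 CPM. *Atp2a3* was at 186, 591 and 0.527 CPM on the male plates and 271 CPM on the female plate, against 42.1 and 31.1 CPM, so liver_319s with its 14 cells stood apart. *Casq2* was at 195 and 152 CPM against 6.66 and 27.7 CPM, in 15.3% of cells. *Srl* (sarcalumenin) was at 23.1 and 35.8 CPM, was not counted in any other male mural cluster and was at 0.450 CPM in the female ones. *Ryr2* was at 16.6 and 2.40 CPM, with 20 counts in 2.12% of cells.

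Entry and exit of calcium at the plasma membrane followed. The T-type channels *Cacna1h* and *Cacna1g* were at 83.8 and 106 CPM, and at 31.8 and 16.4 CPM, against 1.69 and 7.64 CPM, and 2.50 and 0.530 CPM. The L-type channel *Cacna1c*, the main route of entry in SMC, was at 70.3 and 67.3 CPM against 41.4 and 31.9 CPM and was not called (log2 ratio 0.75 and 1.06). The exchanger *Slc8a1*, the pump *Atp2b1* and the cation channel *Trpc6* were called higher. *Trpc6* was at 0.286 CPM on liver_048s and 18.7 on liver_Rb_573s, and its ratio was not above 0 on each of the 3 plates compared within. The lower genes were *Itpr2*, a release channel gated by inositol trisphosphate, at 7.01 and 7.59 CPM against 92.9 and 49.4 CPM, and *Piezo1*, a mechanically gated channel, at 1.26 and 3.21 CPM against 61.1 and 22.3 CPM. Neither was below the other mural cells on each of the 3 plates compared within. *Itpr1*, the other release channel of this type, was at 183 and 193 CPM against 220 and 112 CPM.

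**Figure D3:**
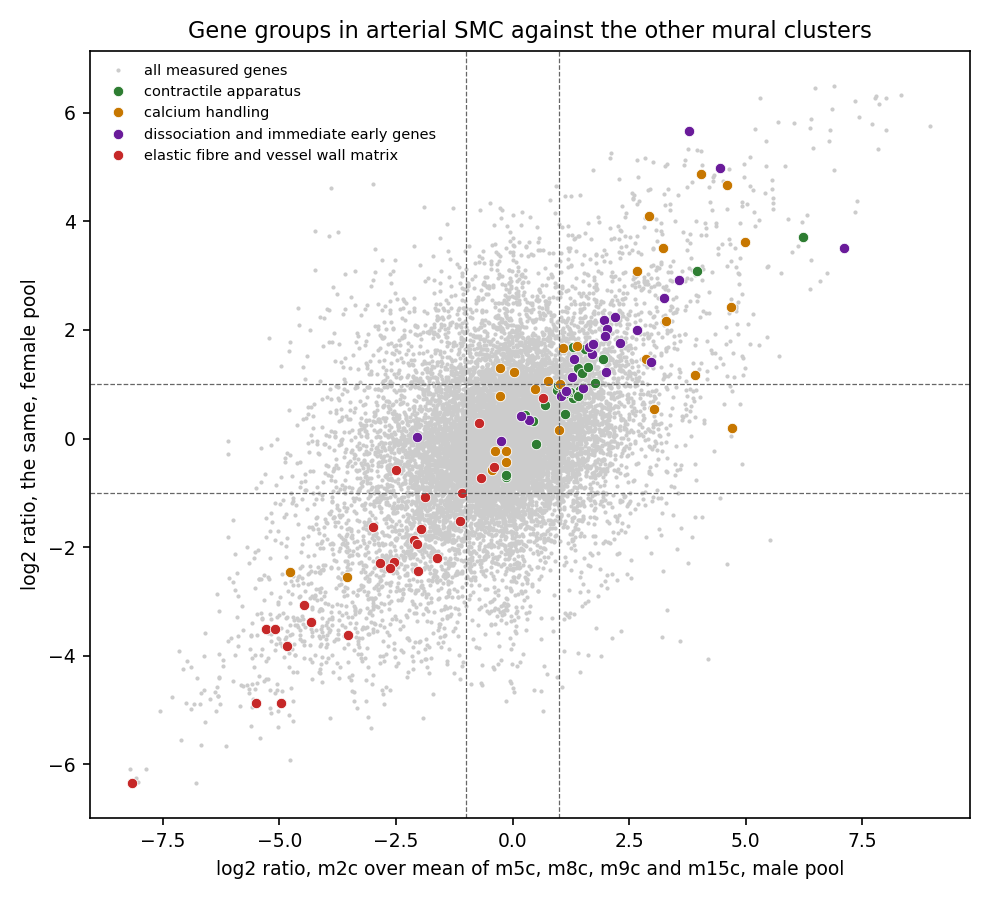
Log2 ratio of m2c over the mean of m5c, m8c, m9c and m15c in the male pool (x axis) and the female pool (y axis) for all 15500 measured genes (grey) and for 4 gene groups (colours), with dashed lines at the limits of -1 and 1. Beyond both upper limits lie 9 of 27 contractile, 13 of 27 calcium and 18 of 26 immediate early and stress genes. In the lower left corner lie 21 of 26 genes of the vessel wall matrix.

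Among 17 measured potassium and chloride channel genes, 3 were higher and 2 lower. These are 17.6% and 11.8%, against 7.17% and 10.5% of all genes, so the lower share was near that of all genes. *Kcna5*, a voltage-gated potassium channel, was at 192, 316 and 158 CPM on the male plates and 185 CPM on the female plate, against 1.70 and 2.14 CPM. *Kcnab1*, a β subunit of such channels, was at 595, 176 and 63.0 CPM and at 283 CPM in the female pool, against 0.668 and 2.59 CPM. Both were above every other cluster on each of these plates, with 20 counts in 114 and 107 of 236 cells. *Kcnj12*, an inward rectifier, was at 34.6 and 23.5 CPM in m2c and was not counted in any other male mural cluster. *Abcc9*, the sulfonylurea receptor subunit of the channel that opens at low ATP, was lower, at 99.7 and 44.3 CPM against 834 and 345 CPM, and its pore *Kcnj8* was not called (168 and 138 CPM against 147 and 207 CPM). Besides *Abcc9*, *Clca3a1* was lower, although not within liver_Rb_573s (log2 ratio 0.21). *Kcnmb1*, the β1 subunit of the calcium-activated channel, was at 233 and 316 CPM in m2c and at 668 and 600 CPM in m15c.

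The receptors for vasoactive signals went both ways. Of 36 measured, 8 were higher and 10 were lower, or 22.2% and 27.8%, against 7.17% and 10.5% of all genes. By the weaker of its ratios in the pools, the lowest of all genes called was *Ednrb*, the endothelin receptor type B. It was at 23.9, 2.67 and 1.05 CPM on the male plates and 12 CPM on the female plate, against 1158, 1167, 2118 and 1606 CPM in m5c, m8c, m9c and m15c of the male pool and 638, 658, 1722 and 1213 CPM in the female pool. Every plate with at least 5 cells of m2c was thus below every other cluster (log2 ratio -6.79 and -6.34). At least 20 counts of *Ednrb* were found in 3 of 236 cells of m2c (1.27%, interval 0.263 to 3.67%), against 63 of 87, 54 of 72, 36 of 39 and 25 of 33 in the other clusters. *Ednra*, the type A receptor through which endothelin contracts SMC, was at 471 and 242 CPM in m2c against 732 and 276 CPM and was not called. Within plates the ratio of *Ednrb* was -6.00, -6.31 and -6.89.

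Receptors for noradrenaline, ATP and neuropeptide Y, the signals of sympathetic nerves, went both ways. *P2rx1*, the ATP-gated channel at the nerve-muscle contact of arteries, was at 255, 82.8 and 156 CPM on the male plates and 311 CPM on the female plate, against 0.150 and 3.16 CPM. It had 20 counts in 51 of 236 cells of m2c and in none of the 231 cells of the other clusters. *Npy1r*, the receptor of neuropeptide Y, was at 437 and 267 CPM against 32.6 and 34.9 CPM, in 112 of 236 cells. The β-adrenergic receptor *Adrb1* was at 44.6 CPM in male and 1.14 in female cells, against 1.53 and 0 CPM, so that the female level was close to none. The α-adrenergic receptors *Adra1b* and *Adra2b* were lower, at 0.0935 and 0.510 CPM against 17.7 and 16.1 CPM, and at 35.8 and 27.3 CPM against 377 and 355 CPM. On liver_Rb_573s the within-plate ratio of *Adra2b* was -0.13.

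Receptors for lipids and peptides differed by subtype. For sphingosine 1-phosphate, *S1pr3* was higher, at 396 and 703 CPM against 25 and 42.6 CPM, and *S1pr2* was lower, at 1.40 and 10.6 CPM against 76.2 and 110 CPM. For prostanoids, the prostacyclin receptor *Ptgir* was higher (118 and 95.7 CPM against 26.9 and 18.6 CPM), *Ptger3* was lower (0.234 and 1.41 CPM against 52.0 and 109 CPM), and the thromboxane receptor *Tbxa2r* was not called. *Agtr1a*, the angiotensin II receptor, was lower, at 59.9 and 35.1 CPM against 350 and 345 CPM, as were the thrombin receptor *F2r* and the adenosine receptor *Adora2a*. For nucleotides, *P2ry6* was higher and *P2rx4* and *P2ry14* were lower, the last at 0.327 and 0.330 CPM in m2c. The 18 receptors that were not called had ratios from -0.79 to 3.92 in the male and from -2.53 to 3.43 in the female pool. Of the 18 called, *Gpr20* included, 17 kept their side of 0 on each of the 3 plates compared within, the exception being *P2ry14*. Those plates hold most of the m2c cells that made the calls.

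**Figure D4:**
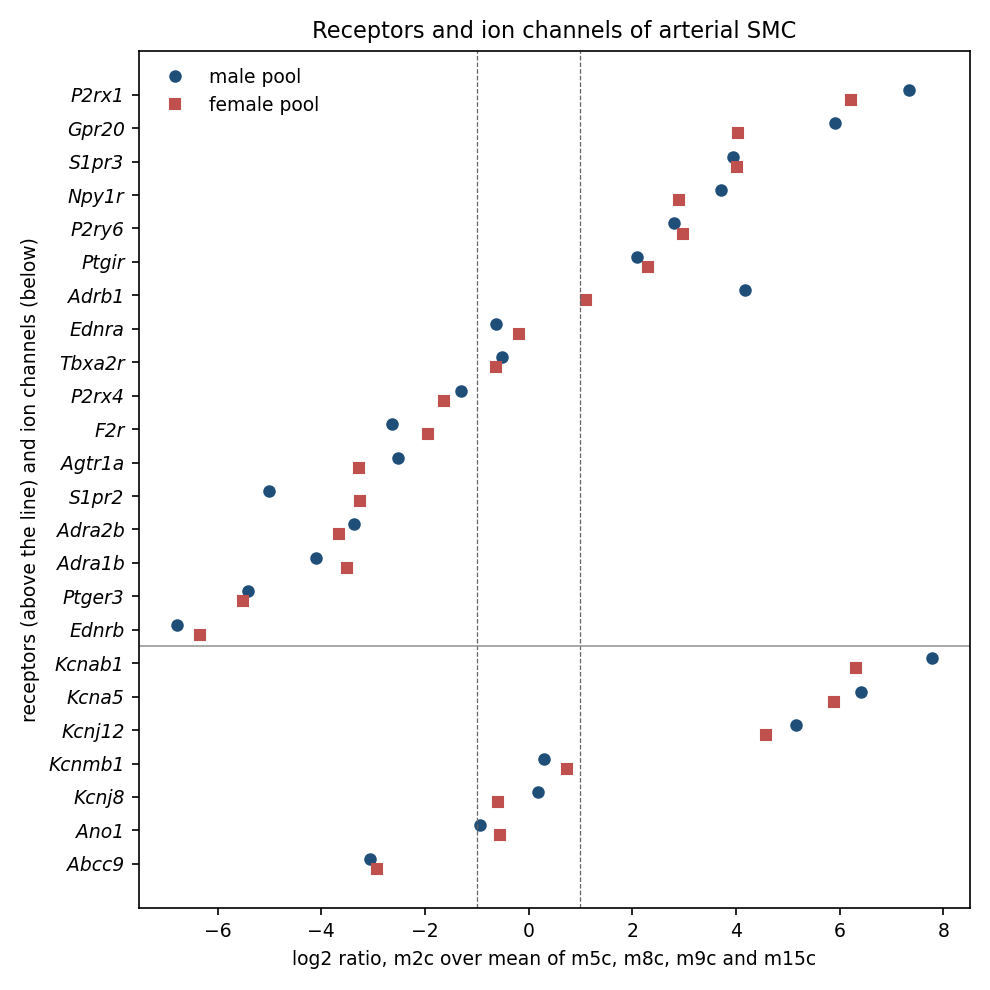
Log2 ratio of m2c over the other mural clusters for 17 receptors and 7 ion channel genes, called genes with some that were not called, in the male pool (circles) and the female pool (squares), with dashed lines at -1 and 1. *P2rx1* and *Kcnab1* are highest in each block and *Ednrb*, *Ptger3* and *Abcc9* lowest, with both pools on the same side for every called gene.

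Of 36 genes of contraction signalling and its brakes, 6 were higher and 4 lower. These are 16.7% and 11.1%, against 7.17% and 10.5% of all genes, so the lower share was near that of all genes. Besides *Rasd1* and *Sncg*, the higher genes were *Rgs4*, which speeds the shut-off of G proteins (732 and 518 CPM against 24.3 and 70.9 CPM), *Ppp1r12a*, the targeting subunit of myosin phosphatase (688 and 645 CPM against 234 and 153 CPM), *Rhob* and *Plcb1*. *Ppp1r12a* was at 718 and 372 CPM in m15c, so the difference lay against m5c, m8c and m9c, which had between 61.9 and 98.1 CPM. *Arhgap42*, a GTPase-activating protein that lowers contractility, was at 30.5 and 14 CPM against 267 and 139 CPM. *Gnaq*, *Pde4d* and *Prkce* were the other lower genes, at no more than 19.7 CPM in m2c, and *Gnaq* was higher in m2c within liver_048s (log2 ratio 2.99).

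In the Notch pathway, which specifies arterial SMC, 3 of 16 measured genes were higher and 1 was lower, or 18.8% and 6.25%, against 7.17% and 10.5% of all genes. The target *Hes1* was at 572, 421 and 598 CPM on the male plates and 267 CPM on the female plate, against 94.6 and 73.6 CPM. *Nrarp*, a target that feeds back on the pathway, was at 188 and 128 CPM against 5.82 and 24.4 CPM. *Notch3*, the receptor of mural cells, was at 563 and 830 CPM against 1041 and 578 CPM, on opposite sides in the pools and not called. *Heyl* was at 1046 and 1277 CPM and not called either, since m8c had 1337 and 1552 CPM. *Notch4* was called higher at only 4.54 and 2.28 CPM and was not above the other mural cells on liver_Rb_573s, and *Dtx4* was the lower gene.

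Of 35 transcription factors of mural cells, 9 were higher and 8 were lower, or 25.7% and 22.9%, against 7.17% and 10.5% of all genes. *Myocd*, the cofactor of serum response factor in smooth muscle, was at 645 and 175 CPM against 293 and 69.8 CPM, and in m15c at 962 and 218 CPM. *Mef2c* was at 439 and 510 CPM against 72.0 and 65.2 CPM and *Mef2d* at 198 and 165 CPM against 40.1 and 48.5 CPM. The T-box factors *Tbx2* and *Tbx3* were higher, at 217 and 195 CPM and at 68.5 and 98.9 CPM, while *Tbx20* was lower, at 14.9 and 15.9 CPM against 150 and 80.9 CPM. The forkhead factors *Foxc1* and *Foxc2* were higher at 5.28 and 12.9 CPM and at 55.3 and 16.2 CPM. *Klf2* and *Klf4*, factors that flow and stress also induce, were at 530 and 119 CPM and at 63.7 and 107 CPM, against 7.40 and 10.1 CPM and 2.16 and 5.84 CPM. The other lower factors were *Gata6*, *Tcf21*, *Wt1*, *Lhx2*, *Hic1*, *Zeb2* and *Smad6*, of which *Lhx2* and *Tcf21* are known from hepatic stellate cells. *Lhx2* was at 0.0935 and 2.82 CPM in m2c against 26 and 40.1 CPM.

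Genes of the vessel wall matrix were lower in m2c. Of 26 genes of elastic fibres and interstitial matrix, 21 were lower and none higher, against a background of 10.5%, with a median log2 ratio of -2.52 and -2.24. Of the 21, *Fbln2* and *Ltbp3* were not below 0 on each plate compared within. Fibroblast markers, which share *Lum* and *Dcn* with this list, were lower beside it (2267 and 3548 CPM in sum against 10613 and 10473 CPM), and their part in the result was not tested. Together the 26 genes summed to 6645 and 7179 CPM in m2c, against 40177 and 38788 in m5c, 30954 and 27363 in m9c, 24434 and 25130 in m15c, and 19169 and 15274 in m8c. *Col3a1*, a fibrillar collagen, was at 122, 407 and 75.3 CPM on the male plates and 446 CPM on the female plate, against 4208 and 4679 CPM. *Fbln5*, which guides the assembly of elastic fibres, was at 106 and 79.4 CPM against 1226 and 991 CPM. *Efemp1* and *Mfap5* were at 16.8 and 17.4 CPM and at 0.935 and 1.26 CPM, although *Mfap5* was high in m15c alone (340 and 256 CPM). *Eln*, elastin itself, was at 103 CPM in male and 229 in female cells, against 589 and 345 CPM, and was not called. The small proteoglycan *Bgn* was at 2631 and 2202 CPM against 4214 and 3622 CPM and was not called.

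**Figure D5:**
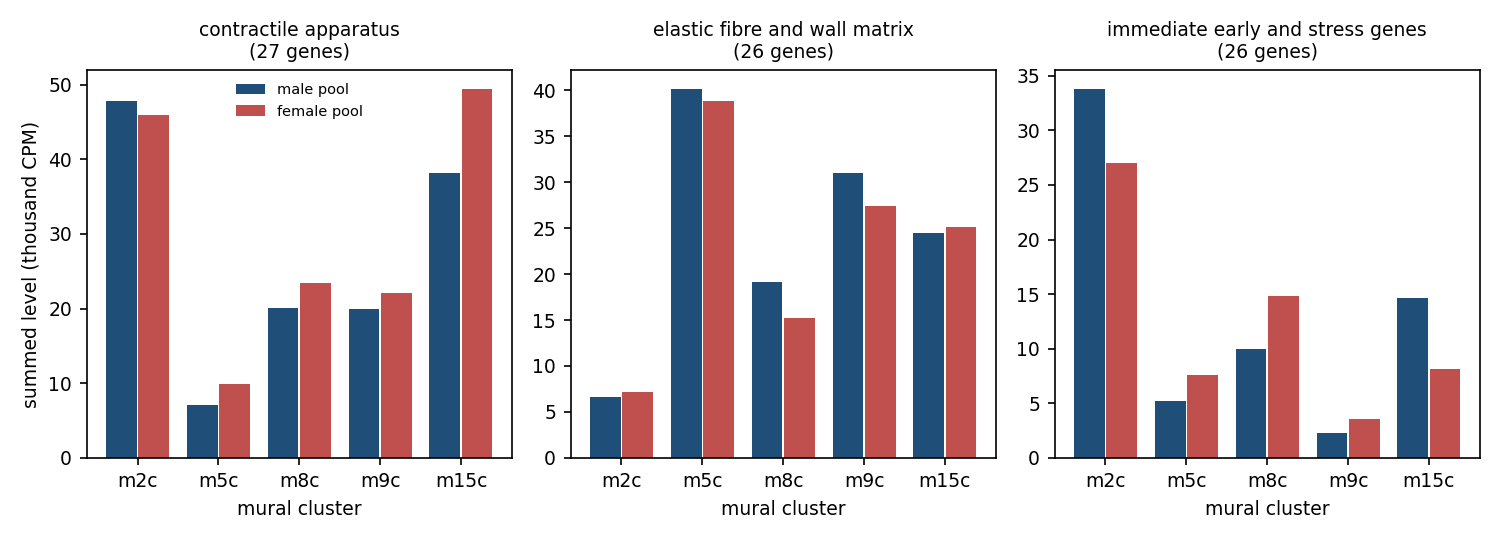
Summed CPM of the 27 contractile genes, the 26 genes of elastic fibre and wall matrix and the 26 immediate early and stress genes in each mural cluster, as bars from 0 in units of 1000 CPM, blue for the male and red for the female pool. In m2c the first and the last group are high and the matrix is lowest of the 5 clusters.

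Basement membrane genes went both ways. Of 31, 6 were higher and 9 lower, or 19.4% and 29.0%, against 7.17% and 10.5% of all genes, with a median log2 ratio of -0.81 and -0.69. The laminin chains *Lama5* and *Lamc3* were at 320 and 441 CPM against 92.5 and 62.5 CPM, and at 118 and 147 CPM against 13.2 and 33.0 CPM, while *Lama2*, *Lama4* and *Lamb1* were lower. *Lama2* was at 43.8 and 50 CPM against 408 and 193 CPM. Collagen chains *Col18a1* and *Col4a6* were higher and *Col4a1* lower, at 245 and 338 CPM against 924 and 771 CPM. *Col18a1* was at 404, 1282 and 4.22 CPM on the male plates and at 1142 CPM on the female plate, with liver_319s apart from the others. The nidogens *Nid1* and *Nid2*, which link laminin to collagen, were lower, as was nephronectin, *Npnt*, which was highest in m15c (985 and 1790 CPM, against 46.5 and 29.5 CPM in m2c). Of the receptors, *Itga7*, an integrin for laminin in muscle, was higher at 431 and 693 CPM against 130 and 138 CPM, and *Sgca*, a sarcoglycan of the dystrophin complex, at 259 and 228 CPM against 1.43 and 26.8 CPM. *Itga1* and *Itga9* were lower.

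Genes used to mark pericytes, the mural cells of capillaries, were found in part of m2c. Of 10 pericyte genes, *Cspg4* was higher in m2c (172, 533 and 286 CPM on the male plates and 436 CPM on the female plate, against 42.9 and 64.6 CPM), and *Abcc9* and *Vtn* were lower. These are 10% and 20%, against 7.17% and 10.5% of all genes, so the higher share was near that of all genes. A cell was counted as carrying pericyte genes when at least 3 of *Cspg4*, *Higd1b*, *Kcnj8*, *Abcc9* and *Ephx3* had 20 counts. This held for 31 of 236 cells of m2c (13.1%, interval 9.10 to 18.1%), for 26 of 72 cells of m8c (36.1%, 25.1 to 48.3%), for 3 of 39 of m9c and for none of the 87 and 33 cells of m5c and m15c. In m2c they were 13 of 127 male (10.2%) and 18 of 109 female cells (16.5%), with overlapping intervals, and 2 of 62 on liver_Rb_573s. With every cell thinned to 50000 counts the share was 4.24% in m2c, 20.8% in m8c and 0% in the others. With a limit of 1 count it was 64.4% in m2c and 78.8% in m15c, so at that limit m15c was above m2c.

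In genes outside the rule, these 31 cells compared with the other 205 as follows. Their median *Rgs5*, a pericyte gene, was 3812 CPM against 54 CPM. *Cnn1* had a median of 638 CPM against 1267 CPM and *Acta2* of 5365 CPM against 7774 CPM, while *Myh11* was at 4336 and 4931 CPM. At least 20 counts of *Pln* were found in 51.6% of the 31 cells and in 68.8% of the others, with medians of 337 and 498 CPM. *Gpr20* had medians of 723 and 27.5 CPM, *Rasd1* of 178 and 23.9 CPM and *Kcna5* of 116 and 63.9 CPM. Median total counts were 266530 in the 31 cells and 202850 in the others, and the part of depth in these values was not tested. *Ednrb* was low in both, with medians of 3.08 and 3.63 CPM. The plates are mixed unequally in these medians, since 18 of the 31 cells were on liver_058s and 2 on liver_Rb_573s. Within liver_058s (18 against 91 cells) the medians were 4357 and 97.3 CPM for *Rgs5*, 777 and 1274 CPM for *Cnn1*, 5502 and 6616 CPM for *Acta2*, 12.9 and 498 CPM for *Pln*, 778 and 637 CPM for *Gpr20* and 227 and 248 CPM for *Rasd1*. Within liver_048s (7 against 40 cells) they were 958 and 5.18 CPM for *Rgs5*, 988 and 1562 CPM for *Cnn1*, 4984 and 9286 CPM for *Acta2*, and 687 and 66.7 CPM for *Gpr20*, but *Pln* was at 1540 and 1039 CPM. *Kcna5* was at 0 and 1.80 CPM on liver_048s and at 181 and 134 CPM on liver_058s. *Rgs5*, *Cnn1*, *Acta2* and *Gpr20* thus kept their side on both plates, while *Pln*, *Rasd1* and *Kcna5* did not. Median total counts were 328670 and 168110 on liver_048s, and 278560 and 267380 on liver_058s. On liver_048s *Acta2* CPM fell with total counts (rho -0.95), and the part of depth in these sides was not tested. These values within plates were added after seeing the data.

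Among 24 nerve growth and guidance genes, 2 were higher and 8 were lower, or 8.33% and 33.3%, so that the higher share was near the 7.17% of all genes and the lower share stood beside 10.5%. *Artn*, which encodes artemin, a growth factor that draws sympathetic axons along vessels, was at 41.5, 145 and 0 CPM on the male plates (0 on liver_319s) and 96.8 CPM on the female plate, against 3.76 and 8.78 CPM, with 20 counts in 42 of 236 cells. *Efnb2*, the arterial ephrin, was at 7.62 and 26.9 CPM against 0.348 and 0.4 CPM, and its venous partner *Ephb4* was lower, at 22.4 and 16.8 CPM against 67.6 and 42.1 CPM. The neurotrophin receptor *Ngfr* was at 0.655 and 19.6 CPM against 159 and 244 CPM. *Ntn1*, *Robo1* and the semaphorins *Sema3a*, *Sema3b*, *Sema3c* and *Sema3d* were the other lower genes, of which *Sema3b* was not lower within liver_048s (log2 ratio 0.23) and *Sema3c* not within liver_Rb_573s (0.39).

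Of 44 measured growth factor and receptor genes, 17 were lower and 5 higher, or 38.6% and 11.4%, against 10.5% and 7.17% of all genes. *Fgf1* was at 461, 244 and 35.3 CPM on the male plates and 306 CPM on the female plate, against 0.408 and 6.6 CPM. *Pdgfb*, usually an endothelial ligand for mural cells, was at 30.1 and 48.3 CPM against 3.91 and 0.402 CPM and was not above 0 on each plate compared within, and *Kitl*, *Hbegf* and *Vegfb* were also higher. *Igfbp3*, which binds insulin-like growth factors, was at 54.8 and 216 CPM against 3313 and 2688 CPM. *Pdgfra*, the marker of fibroblasts, was at 10.2 and 6.81 CPM against 129 and 95.6 CPM, and *Vegfc*, *Vegfd*, *Angpt1*, *Hgf* and *Igf1* were lower too.

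In energy metabolism 6 of 29 genes were higher (20.7%, against 7.17% of all genes) and none lower. *Ckb*, the creatine kinase of smooth muscle and brain, was at 1567 and 2139 CPM against 656 and 829 CPM, and m15c had 1211 and 1929 CPM. *Pgam2*, the muscle form of a glycolytic mutase, was at 90.2 and 161 CPM against 0.0999 and 2.05 CPM, with 20 counts in 28.8% of cells of m2c and in none of the others. *Slc2a4*, the insulin-responsive glucose transporter, was at 380 and 618 CPM against 141 and 156 CPM. *Ppargc1a*, *Perm1* and *Fabp3*, genes of oxidative muscle, were called at levels of at most 31.8 CPM, and *Ppargc1a* and *Perm1* were not above 0 on each plate compared within.

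Regardless of the groups, the 20 genes with the largest ratios among those counted in at least 50% of the cells included several with no well-known role in SMC. *Perp*, a p53 target of cell junctions, was at 185 and 300 CPM against 0.564 and 2.32 CPM. *Susd5* was at 481 and 563 CPM, *Olfml2a* at 858 and 612 CPM, *Tesc* at 373 and 306 CPM and *Grip2* at 264 and 347 CPM, each at no more than 0.741 CPM (male) and 10.4 CPM (female) as the mean of the other clusters. *Net1*, a guanine nucleotide exchange factor, was at 553, 334 and 0.263 CPM on the male plates and 311 CPM on the female plate. *Corin*, the protease that activates atrial natriuretic peptide, was at 931 and 749 CPM against 22.6 and 8.75 CPM. *Gm20647*, which overlaps *Corin* on the other strand, was at 43.4 and 41.3 CPM. The strand setting is not given in the sources used here, so reads of the overlap cannot be assigned between them. The same holds for *Kcnab1*, *Sorbs2*, *Efhd1* and *Nrip2*, which overlap other genes. The rest of the 20 were *Ddit4l*, *Kcna5*, *Rasd1*, *Fgf1*, *Sncg*, *Nr4a1*, *Pcp4l1* and *Nfkbiz*.

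At the other end, the 10 lowest genes counted in at least 50% of the other mural cells were *Ednrb*, *Chrdl1*, *Ltbp2*, *Lrat*, *Nr1h4*, *Pcolce2*, *Cyp2e1*, *Tmem119*, *Slco2b1* and *Cpz*. *Chrdl1*, an inhibitor of bone morphogenetic proteins, was at 1.31 and 3.21 CPM against 624 and 321 CPM. *Lrat*, which stores vitamin A in stellate cells, was at 1.45 and 10.3 CPM against 717 and 766 CPM, highest in m5c and m9c and at 1.22 CPM in the male m15c. *Nr1h4*, the bile acid receptor FXR, was at 0.888 and 3.48 CPM against 259 and 210 CPM. *Cyp2e1*, a hepatocyte enzyme, was at 27.9 and 14.9 CPM against 1052 and 530 CPM, with 2158 and 1015 CPM in m5c.

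Most immediate early genes and some heat shock genes, which cell dissociation and stress are known to induce, were higher in m2c. Of 26 such genes, 18 were called higher (69.2%, against 7.17% of all genes) and none lower. They summed to 33823 and 27024 CPM in m2c, against 9990 and 14809 in m8c, 14669 and 8175 in m15c, 5225 and 7595 in m5c and 2289 and 3598 in m9c. *Fos* was at 5163, 5833 and 5323 CPM on the male plates and 4412 CPM on the female plate, against 841 and 1106 CPM. *Nr4a1* was at 4673 and 2903 CPM against 212 and 90.2 CPM. *Atf3* was at 1506 and 994 CPM against 9.95 and 86.3 CPM, with 20 counts in 138 of 236 cells of m2c, in 5 of 87, 5 of 72, 0 of 39 and 2 of 33 cells of the others. All 18 were above the other mural cells on each of the 3 plates compared within, which hold most of the same m2c cells. Of the heat shock genes, *Hspb1* and *Dnajb1* were called higher, while *Hspa1a* and *Hspa8* were not called. *Jun* and *Dusp1* were not called either. *Klf2*, *Klf4*, *Hbegf*, *Rhob* and *Nfkbiz* can also be induced by stress. The part of the dissociation in these levels was not tested.

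Markers of other liver cells were found at different levels in m2c. The 8 endothelial markers summed to 23.8 CPM in male and 40.9 in female cells of m2c, with *Cdh5* at 0.468 and 0.240 CPM, and 5 of 236 cells had 20 counts of at least 2 of them. The 8 immune markers summed to 64.2 and 45.4 CPM and to 246 CPM on liver_319s. The 8 hepatocyte markers summed to 323 and 486 CPM, with 20 counts of at least 2 of them in 41 of 236 cells, and 1 of them, *Cyp2e1*, was called lower. Fibroblast markers summed to 2267 and 3548 CPM against 10613 and 10473 CPM, and 155 of 236 cells had 20 counts of at least 2 of them. Stellate cell markers summed to 1033 and 1118 CPM against 5113 and 4410 CPM, with 35 of 236 cells at that limit. Of these lists 6 of 8 and 7 of 8 genes were called lower, against 10.5% of all genes, *Pdgfra* and *Lrat* among them, and their part in the results was not tested. Cholangiocyte, mesothelial and Schwann cell markers summed to at most 57.1 CPM in either pool, and none of their measured genes was called.

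The nearest clusters were m8c and m15c. By the same limit of 1 in both pools, m2c and m8c differed in 2801 genes, the fewest of the 4 clusters, with 1676 higher in m2c (10.8%) and 1125 lower (7.26%). Against m15c 2347 genes were higher (15.1%) and 760 lower (4.9%), but the male m15c held only 7 cells. Against m8c, 14 of 27 contractile genes were higher in m2c and none lower. Against m15c 3 were higher and 1 lower, shares no larger than the 15.1% and 4.9% of all genes. Of 26 matrix genes, 15 were lower than in m15c and 8 lower than in m8c. Of 16 Notch pathway genes, 7 were higher than in m15c (*Notch1*, *Notch4*, *Jag1*, *Hes1*, *Hey2*, *Heyl* and *Nrarp*). Only 2 were higher than in m8c, a share near the 10.8% of all genes. Of 10 pericyte genes, 6 were higher than in m15c and none higher than in m8c. Markers of the other mural clusters showed both patterns. *Ephx3* was at 426 and 416 CPM in m2c, 1595 and 2068 CPM in m8c and 144 and 94.3 CPM in m15c. *Ncam1* was at 1.17 and 6.78 CPM in m2c, 13.4 and 2.99 CPM in m8c and 677 and 585 CPM in m15c.

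Between the pools of m2c, a gene was counted as higher in a sex when the log2 ratio was at least 1 and the female plate lay beyond each male plate with at least 5 cells. Of 13131 genes measured in m2c, 2617 were higher in the female pool (19.9%) and 541 in the male pool (4.12%). With TMM scaling these were 1979 and 873, so the split moved with the scaling. Without liver_048s they were 4210 and 1021, and the male count was 906 without liver_319s and 886 without liver_Rb_573s. *Xist*, the transcript of the inactive X chromosome, was at 137 CPM in the female pool and at 0 on every male plate with at least 5 cells, as the labels have it. Its antisense gene *Tsix* overlaps it. *Aqp1*, a water channel, was at 55.8 CPM in the female and 2.53 CPM in the male pool, and *Pde4c*, a phosphodiesterase, at 50.9 and 0.421 CPM. *Spp1* (osteopontin) was at 79.9, 7.54 and 61.6 CPM on the male plates and 0.0300 CPM on the female plate, and *Cebpd*, an acute-phase transcription factor, at 305, 410 and 778 CPM and 70.9 CPM. *Ints1*, *Abhd8*, *Abcc5*, *Git1*, *Gm10800* and *Gm10801* were the other genes highest in the female pool, and *Mir6240*, *AA474408*, *Gm15564*, *Lars2*, *Mir6236*, *Ccdc50.ps*, *Ybx1* and *Gm23935* those highest in the male pool. Of the markers, *Pln*, *Rasd1*, *Gpr20*, *Sncg* and *Ednrb* were in neither set. The female cells had more counts and more genes each. With every cell thinned to 50000 counts, 1775 genes were higher in the female and 455 in the male pool, of which 1347 and 347 were also called without thinning.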

How the data were processed

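Single cells of adult mouse livers were sequenced by Smart-seq2. The authors aligned the reads and counted them per gene (submitters' processing notes name Bowtie2, Subread featureCounts and the builds GRCm38 and mm10, without versions), and deposited raw read counts for 46517 genes and 92 ERCC spike-ins in each cell, together with a metadata table. The authors had removed cells of low quality, putative doublets and cells with transcripts of other cell types. The deposited counts were used as they are. The metadata column of pagoda2 community clusters gave the clusters, and cells were matched to their sample by cell ID. Of the deposited cell columns 40, on plates with few cells, were not used, none of them a mural cell. No cell ID was shared between samples, no cell of m2c had the same counts as another, and no mural cell had fewer than 50000 counts.

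For each cluster and pool, and each plate with at least 5 cells, the counts of all cells were added up and divided by their total without spike-ins to give CPM. A gene was measured when it was counted in at least 10 mural cells with at least 50 counts in all. A pseudocount of 1 CPM was added before log2. Lengths per gene were exonic bases of GENCODE vM21. Promoter sequences came from RefSeq (GRCm38.p6). Work was done in Python 3.11.15 with numpy 2.4.6, scipy 1.17.1 and pandas 2.3.3, and alternative scalings in R 4.3.3 with edgeR 4.0.16 and DESeq2 1.42.0. The calling script was tested on simulated data.

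No significance test was run. The clusters were made from the same cells, each sex is a single pool, and nothing in the labels makes plates replicates of animals. Members and gene lists were chosen with earlier results of these data known. Named were the markers of the cluster, the called members of the lists, the 20 highest and 10 lowest genes counted in at least 50% of the cells concerned, the 10 highest per exonic length, and 10 per sex, while other members are given by count and range. Genes named outside this rule, for their level between subtypes or clusters, were chosen after their values were seen. Some members of the lists are not reported here, and the rule on pericyte genes was applied without one that it first held, a change made after seeing the data. Alternatives were other scalings, pseudocounts, filters, references and clusterings, and leaving out each plate.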

Additional observations from a re-analysis of the deposited data

Results flagged for a closer look

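For 6 genes of the lists the ratio of m2c over the other mural clusters was at least 1 on the log2 scale in one direction in the male pool and in the other direction in the female pool. The difference between pools was not tested, and 670 of all 15500 measured genes did the same. *Igfbp2* had a log2 ratio of -2.12 in the male and 1.45 in the female pool, with 0 and 12.9 CPM in m2c. *Pdgfc* had -1.42 and 1.71, with 0.561 and 10.7 CPM. *Inhba* had -1.96 and 1.01, with 3.41 and 22.8 CPM. *Eno3*, a muscle enolase, had -2.69 and 1.14, with 13.8 and 41.9 CPM in m2c and 344 CPM in the 7 male cells of m15c. *Tgfb1* had 1.13 in the male and -2.18 in the female pool, with 3.51 and 0.510 CPM. *Ntn4* had 3.20 and -1.38, with 11.8 and 1.17 CPM in m2c and 64.3 CPM on plate liver_319s. All of them were low in m2c.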

How the results depend on the processing

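In place of 1112 genes called higher, there were 572 with a pseudocount of 10 CPM, and between 963 and 1348 under the other scalings, filters, references and pseudocounts, with 1019 to 1163 when a male plate was left out. In place of 1634 lower genes, there were 786 with a pseudocount of 10 CPM, and 1573 to 1792 without a plate. Asking for the limit within each of 3 plates, an alternative chosen after seeing the data, gave 762 higher and 803 lower genes, of which 585 and 708 were also called in the pools. The 151 genes lower than in each cluster ranged from 128 to 391 without a plate, the last without liver_048s, which leaves fewer than 5 male cells in m15c. The 2617 genes higher in the female pool became 1146 with a pseudocount of 10 CPM and 3020 to 4210 without a male plate. The 541 genes higher in the male pool became 873 with TMM scaling, 321 with a pseudocount of 10 CPM, 1587 without the condition on plates and 886 to 1021 without a plate. The share of m2c with pericyte genes was 64.4% at a limit of 1 count, 4.24% after thinning and 10.2 to 16.7% without a plate. TMM scaling moved the median ratio of all genes by 0.07 in the male and -0.10 in the female pool, and DESeq2 size factors by -0.01 and -0.17. Ratios of the 9 marker genes tried (*Acta2*, *Cnn1*, *Myh11*, *Tagln*, *Des*, *Pln*, *Rasd1*, *Gpr20* and *Sncg*) kept their direction under every alternative run. The female plate could not be left out of a rule that needs both pools, and the cause of these shifts was not tested. No analysis paired by mouse was possible because the labels do not give the mouse of a cell. Pairing by plate was possible on 3 plates and is given as ratios within plates, with no test. Depth limits the shares of cells for genes under about 20 counts per cell.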

Other observations

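Per exonic length, the most abundant transcripts of m2c included those of *Myl9*, *Acta2*, *Fos* and *Actb*. *Myl9* reached 12013 and 10249 TPM (transcript levels per length, scaled to 1000000) in the male and female pool, *Acta2* 10833 and 8150, *Fos* 6868 and 5695, and *Actb* 5802 and 4204. *Sparcl1*, a matricellular protein of the SPARC family, was at 5075 and 4446 and *Igfbp7* at 6054 and 2860. *Sparcl1* was also called higher in m2c, at 4959 and 4301 CPM against 733 and 849 CPM. *Rn18s.rs5*, *mt.Rnr2*, *Gm37376* and *Gm26377* were the rest of the highest 10.

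Across single cells of m2c, given as a description, with male cells pooled over 5 plates whose levels differ and female cells on 1 plate, *Pln* and *Rgs5* had a Spearman's rho of -0.36 in 127 male and -0.34 in 109 female cells, and *Cnn1* and *Rgs5* of -0.46 and -0.38. *Nr4a1* and *Fos* had 0.50 and 0.46. *Pln* and *Gpr20*, both higher in m2c than in the other clusters, had 0.15 and 0.13.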
